A study of Mus musculus with 4 samples.

Results

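The genes described here move sterol out of lysosomes, through the cytosol and out of the cell, and were chosen as a list of 10 mouse genes: Abcg1, Abcg5, Abcg8, Npc1, Npc2, Lipa, Osbp, Stard4, Stard5 and Nceh1. The array measured 9 of them by name, with 15 probe sets, out of 12393 named genes and 22626 probe sets in all. Nceh1, a neutral cholesteryl ester hydrolase, had no probe set under that symbol and was not analysed here. The liver RNA came from 4 ABCA1-TG male mice of strain C57BL/6, killed at 5 to 6 months on the NIH36 diet, with 1 array each, called mouse 1 to mouse 4 by replicate number. Wild-type controls are named in the design and were not analysed here, so every comparison is between transgenic mice. The promoter and the species of the transgene are not given in the labels. The titles call the samples biological replicates and give no litter or batch. The p-values concern the spread between these 4 mice. With 1 array each, a difference between animals and one between arrays cannot be told apart.

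Cholesterol reaches the lysosome as cholesteryl ester inside lipoproteins. Lysosomal acid lipase, encoded by Lipa, frees it, and the soluble protein Npc2 passes it to the membrane protein Npc1 for export. Carriers such as Osbp and the START-domain proteins Stard4 and Stard5 then shuttle sterol between membranes. Abcg1 loads cholesterol onto high density lipoprotein, and Abcg5 and Abcg8 form a heterodimer in the canalicular membrane that secretes sterol into bile. Sterol accumulation induces Abcg1, Abcg5 and Abcg8 through the nuclear receptor LXR, and sterol depletion induces Stard4 through SREBP-2.

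Abcg5 and Abcg8 lie head to head on mouse chromosome 17. The bases between an annotated start site of each are shown because transcripts of both genes start at their ends. In the GRCm38.p6 RefSeq annotation Abcg5 starts at position 84683011 on the minus strand and Abcg8 at 84683121 on the plus strand. The 109 bases between them are chr17:84683012-84683120, printed on the plus strand. A further Abcg8 start is annotated at 84676302, within Abcg5, and lies outside these bases.
Abcg5-Abcg8: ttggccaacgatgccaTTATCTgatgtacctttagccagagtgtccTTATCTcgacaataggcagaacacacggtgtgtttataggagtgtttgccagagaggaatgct
Capitals mark TTATCT, which is AGATAA on the minus strand, the core bound by GATA transcription factors, and it occurs 2 times. AGATAA on either strand occurs in 11.2% of 32851 RefSeq promoter windows of 300 bases, and among members the windows of Abcg5, Abcg8 and Npc2 held it. The window of Abcg5 and that of the Abcg8 start at 84683121 share 209 bases, so their matches overlap. Promoter windows were listed for 6 of the 9 measured members, and not for Abcg1, Npc1 or Stard4. AGGTCA, the element of nuclear receptors (16.3% of all windows), was not found in the listed member windows on either strand. CACGTG (7.15%) and the sterol element TCACCCCAC (0.551%) were not found there either.

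Signals are log2 of the deposited intensity, and the level of 1 probe set is not compared with that of another. Alb, albumin, measured 15.86, 16.06, 15.94 and 15.97 in mice 1 to 4, and the 6 measured hepatocyte markers all had a log2 level of at least 14.19. The 3 probe sets of Abca1, the gene raised by design, had SDs of 0.17 to 0.25 between mice, and whether they detect the transgene was not tested. The arrays' median signal ran from 267 to 305, and mouse 1 had the lowest 3-prime to 5-prime log2 ratio of the Gapdh control, at 1.67 against 1.94 to 2.03. Mouse 3 had the highest ratio of the Gapdh and Actb controls, at 2.03 and 2.12. That of the pyruvate carboxylase control was high on every array, from 4.09 in mouse 1 to 4.79 in mouse 4. The part of this 3-prime excess in disagreement between probe sets was not tested. In bulk liver, fewer cells of a type and less RNA per cell cannot be told apart.

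Most of the sterol transport genes had close levels in the 4 livers, and the 3 exceptions were 1 probe set of Lipa, lowest in mouse 3, and both of Stard4, highest in mouse 3. The highest and lowest mouse differed by under 1.5-fold on 12 of 15 member probe sets, against 43.8% of all probe sets, which have lower levels and wider spread. The spread of each probe set was therefore divided by a prior SD, the spread that limma fits to all probe sets of like level. The median of this ratio was 1.12 over the members and 0.97 over all probe sets. After Benjamini-Hochberg adjustment over all 22626 probe sets, 0 members passed limma's test of excess spread, with adjusted p of at least 0.977, and 0% of all probe sets passed. The unadjusted p was under 0.05 for 2 of 15 member probe sets and for 3.71% of all. An SD over 4 mice has a 95% confidence interval from 0.566 to 3.73 times its value, which limits what this test can call.

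**Figure D1:**
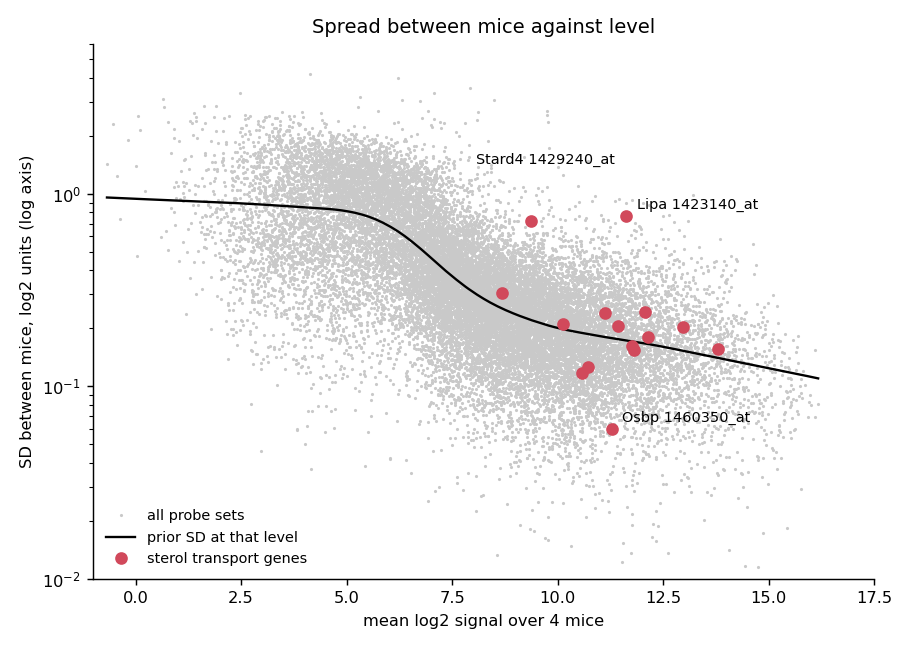
SD between the 4 mice (log2 units, log axis) against mean log2 signal for 22626 probe sets (grey), the prior SD at each level (line) and the 15 probe sets of the sterol transport genes (red). Lipa 1423140_at (SD 0.77) and Stard4 1429240_at (SD 0.72) lie above the line and Osbp (SD 0.060) below it.

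Lysosomal release was read through Lipa, Npc2 and Npc1. Lipa has 3 probe sets, all annotated to the same transcript accession. Probe set 1423140_at measured 11.90, 11.89, 10.48 and 12.18 in mice 1 to 4. Mouse 3 lay 1.51 log2 (2.85-fold) below the mean of the other 3, whose own SD was 0.16, and the SD over all 4 mice was 0.77, or 4.43 times the prior. It had the widest relative spread of the members, with an unadjusted p of 0.0039 and an adjusted p of 0.977 in limma's test.

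The other probe sets of Lipa had the same lowest mouse with a smaller gap. Probe set 1450872_s_at, which has the highest mean level of the 3, measured 13.05, 13.02, 12.67 and 13.13, with mouse 3 at 0.39 (1.31-fold) below the others. Probe set 1423141_at measured 11.93, 11.95, 11.66 and 11.69, where mice 3 and 4 were both low. Mouse 3 was thus the lowest on 3 of 3, while mouse 4 was the highest on 2 and next to the lowest on the other. Over all probe sets 20.8% had their lowest level in mouse 3.

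A second test asked whether the probe sets of a gene share a difference between mice beyond their own disagreement. Its p-values set differences between mice against the noise of probe sets. Probe sets of a gene share RNA and array, so this test cannot tell an animal from its array. The test covered the 4956 genes with at least 2 probe sets, of which 0.383% passed after adjustment and 9.12% had an unadjusted p under 0.05. The shared SD is that between mice of the average over a gene's probe sets, so 1 probe set can carry much of it. For Lipa the shared SD was 0.35 and the disagreement 0.38. The F-test with limma's moderated variance gave an unadjusted p of 0.030 and an adjusted p of 0.48. Mouse 3 lay 1.51 log2 below the others on 1423140_at, against 0.39 on 1450872_s_at and 0.20 on 1423141_at. Without mouse 3 the shared SD was 0.024.

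**Figure D2:**
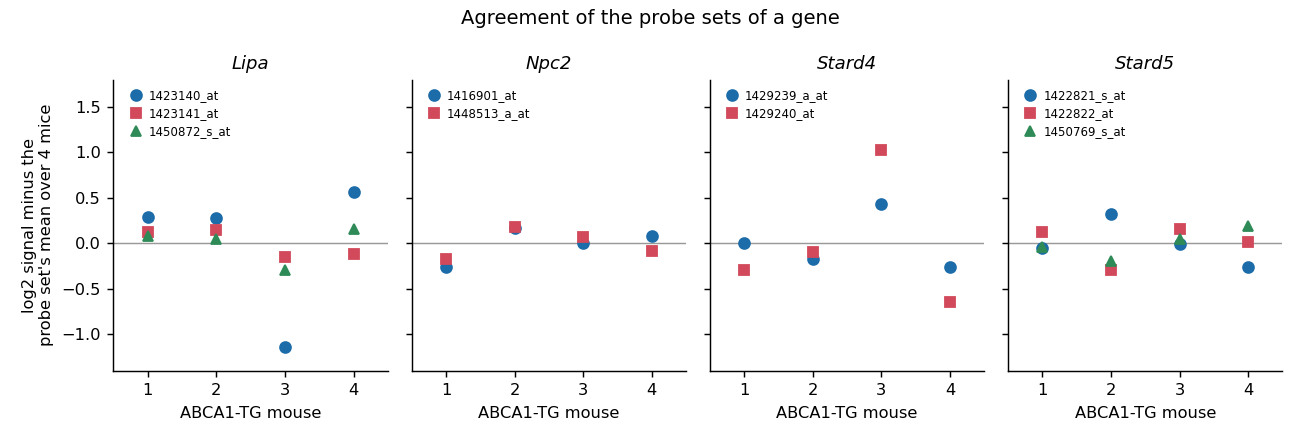
Log2 signal of each probe set minus its own mean over 4 mice, by mouse, for the 4 members with more than 1 probe set. In mouse 3 all 3 Lipa probe sets and both Stard4 probe sets lie on 1 side of zero with different sizes, and in mouse 2 Stard5 1422821_s_at lies opposite to the other Stard5 probe sets.

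Npc2, the soluble carrier, had the same lowest and highest mouse on both of its probe sets. Probe set 1448513_a_at measured 13.62, 13.97, 13.86 and 13.71 and 1416901_at measured 11.89, 12.31, 12.15 and 12.23 in mice 1 to 4. Both were lowest in mouse 1 and highest in mouse 2, with a fold from lowest to highest of 1.28 and 1.34. Mouse 4 was next to the lowest on 1448513_a_at and next to the highest on 1416901_at. The shared SD of 0.16 exceeded the disagreement of 0.081, and the test gave an adjusted p of 0.55 (limma's moderated variance).

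Npc1, the membrane exporter, measured 10.65, 10.52, 10.46 and 10.71, a mean of 10.59 ± 0.12 (SD, n = 4). Its SD was 0.62 times the prior, so the mice differed by less than is usual at that level. In mouse 3 Npc1 and Npc2 were 0.17 below and 0.094 above the mean of the others, gaps of the size of their SDs and well under that of Lipa 1423140_at. The sign of Npc2 in mouse 3 turned once array medians were equalised.

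Cell type markers also differed in mouse 3. Of 12 Kupffer cell and macrophage markers, cells that also express Lipa, Npc2 and Abcg1, 11 were higher there, against 59.8% of all genes. Their median was 0.17 log2 above the other mice, against 0.090 over all genes. Their summed signal was 46071 against 36981 to 44930. In mouse 4, 8 of the 12 were higher, with a median of 0.12, against 42.9% and -0.058 over all genes. Marker medians with array medians equalised are not given here. Clec4f, a Kupffer cell lectin, measured 11.66, 11.67, 12.04 and 11.67. The median of stellate cell and fibroblast markers was 0.44 higher in mouse 3, with 4 of 7 members higher, and that of exocrine pancreas markers 0.89 lower, with 0 of 8 higher. The Kupffer cell median of mouse 3 was 0.10 without mouse 1 and 0.26 without mouse 4, and its stellate cell median 0.29 and 0.67. The pancreas median was -2.21 without mouse 1 and -0.47, with 2 of 8 higher, without mouse 2. Of 6 hepatocyte markers 0 were higher in mouse 3, with a median of -0.061 and a summed signal of 274313 against 280507 to 314918. Of the markers read, 4 were under a signal of 64 in every mouse and 0 were at zero. Others were under it in single mice. In mouse 3 these were the pancreas markers Cpa1, Cpb1 and Ctrl, at log2 3.35, 3.89 and 5.47, and bile duct Krt7, at 5.82. In mouse 1 they included the muscle markers Mb and Tnnc2, at 3.90 and 4.16. The sizes of the pancreas and muscle medians lean on such low signals, and the bile duct medians include some. The part of the marked cell types in the values of mouse 3 was not tested. Skeletal muscle markers were at 0.79 in mouse 3 and at -0.48 when mouse 1, the lowest for muscle, was left out. For bile duct markers the values were 0.42 and 0.059.

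Sterol carriers of the cytosol showed the narrowest and some of the widest spread among the members. Osbp, which exchanges sterol for phosphoinositide between endoplasmic reticulum and Golgi, measured 11.20, 11.33, 11.25 and 11.31 in mice 1 to 4. Its highest and lowest mouse differed by 1.10-fold, and its SD of 0.060 was 0.34 times the prior. Of all probe sets 5.60% had a lower ratio.

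Stard4 was highest in mouse 3 and lowest in mouse 4 on both of its probe sets. Probe set 1429240_at measured 9.07, 9.26, 10.39 and 8.72 in mice 1 to 4. Mouse 3 lay 1.37 log2 (2.58-fold) above the mean of the other 3, whose own SD was 0.27, and the mice spanned 3.17-fold. The SD over all mice was 0.72, or 3.26 times the prior, with an unadjusted p of 0.014 and an adjusted p of 0.977 (limma).

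Probe set 1429239_a_at of Stard4 measured 8.67, 8.50, 9.10 and 8.41, with mouse 3 at 0.57 (1.49-fold) above the others. Both probe sets gave the same extreme mice, and the gap was smaller on this one. The shared SD was 0.51 and the disagreement 0.31, with an unadjusted p of 0.015 and an adjusted p of 0.39 in the test over genes (limma's moderated variance). Without mouse 3 the shared SD was 0.18 and the adjusted p 0.78.

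Stard5, a START-domain relative of Stard4, did not share that pattern, and its probe sets went against each other. Probe set 1450769_s_at measured 11.72, 11.57, 11.81 and 11.96 in mice 1 to 4. Probe set 1422822_at measured 11.55, 11.14, 11.59 and 11.45, again lowest in mouse 2. Probe set 1422821_s_at measured 11.08, 11.45, 11.12 and 10.87, highest in mouse 2 and lowest in mouse 4. The shared SD of Stard5 was 0.051 against a disagreement of 0.24 (adjusted p = 0.96, F-test with limma's moderated variance), so a level per mouse cannot be read for this gene.

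**Figure D3:**
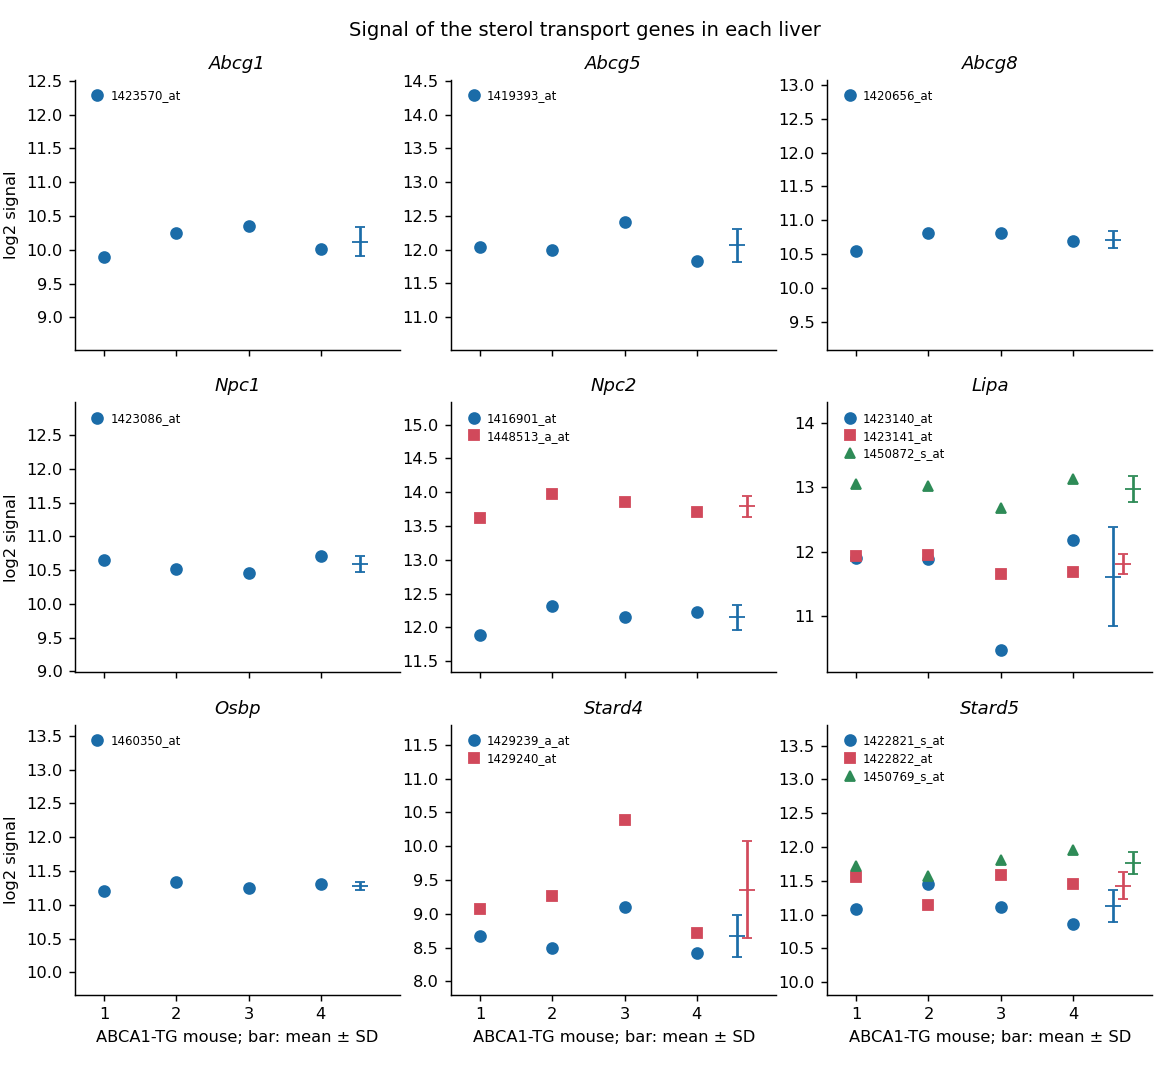
Log2 signal of each probe set of the 9 measured genes in mouse 1 to mouse 4, with the mean ± SD (n = 4) as a bar at the right of each panel. Each axis has its own level, since levels of different probe sets are not comparable. Stard4 1429240_at reaches 10.39 in mouse 3 and Lipa 1423140_at drops to 10.48 there.

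The ABCG exporters spanned from 1.20-fold to 1.49-fold between the highest and lowest mouse. Abcg1 had linear signals of 948, 1211, 1301 and 1027 in mice 1 to 4, a mean log2 level of 10.12, with mice 2 and 3 above mice 1 and 4 and a span of 1.37-fold. Its SD of 0.21 was 1.06 times the prior, and limma's adjusted p was 0.980.

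Abcg5 measured 12.04, 11.99, 12.40 and 11.83, highest in mouse 3 by 0.45 log2 (1.37-fold) over the mean of the others, whose SD was 0.11. The SD over all mice was 0.24, or 1.45 times the prior, and 77.5% of all probe sets had a lower ratio. Abcg8 measured 10.55, 10.81, 10.81 and 10.69, so mice 2 and 3 were level and mouse 1 was lowest, with an SD of 0.13. That SD was 0.68 times the prior. The partners were both above the other mice in mouse 3, by 0.45 and 0.13. In mouse 2 Abcg5 was 0.099 below and Abcg8 0.13 above. The opposite signs in mouse 2 rest on mouse 3: without it Abcg5 was 0.058 above and Abcg8 0.20 above. Without mouse 1, Abcg8 in mouse 3 was 0.059 above. The adjusted p was 0.977 for Abcg5 and 0.991 for Abcg8 (limma), and whether the partners differ from each other was not tested. With array medians equalised Abcg8 in mouse 3 was 0.011 above the others.

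Counted over the 9 measured genes, with the probe set of highest mean level for each, the median differences between mice were of the size of those over all genes. Of the 9, 2 were higher in mouse 1 than the mean of the other mice, against 42.8% of all genes, and 5 were higher in mouse 2, against 57.9%. In mouse 3 the count was 6, against 59.8%, and in mouse 4 it was 4, against 42.9%. The median difference was -0.098, 0.067, 0.094 and -0.038 log2 in mice 1 to 4, and over all genes it was -0.051, 0.062, 0.090 and -0.058. The medians of mice 2, 3 and 4 turned sign once array medians were equalised. The number of the 15 probe sets with their highest level in mice 1 to 4 was 0, 6, 5 and 4, against 19.7%, 29.5%, 32.3% and 18.5% of all probe sets.

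The wider sterol pathways were read from lists that hold none of these members. The 19 measured genes of cholesterol synthesis and SREBP-2 regulation had medians of -0.41, 0.46, 0.52 and -0.48 log2 in mice 1 to 4, with 2, 17, 19 and 0 genes higher than in the other mice. Each kept its sign with any 1 mouse left out, while the sizes moved. Mouse 1 was at -0.72 without mouse 4. Mouse 2 was at 0.75 without mouse 3 and at 0.28 without mouse 4. Mouse 4 was at -0.76 without mouse 1, -0.30 without mouse 2 and -0.31 without mouse 3. Dhcr7, the last enzyme of synthesis, measured 10.57, 12.21, 12.49 and 11.16, and Sqle, squalene epoxidase, 9.71, 11.57, 11.56 and 10.40. Tmem97, a sterol-responsive membrane protein, had the smallest relative spread at 9.60 ± 0.14 (SD, n = 4). An unadjusted p under 0.05 was found for 12 of 19, against 3.71% of all probe sets, and 0 passed after adjustment over all probe sets (limma).

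Stard4 and this list were set side by side because SREBP-2 also controls Stard4. Stard4 was read here on its probe set of higher mean level. Stard4 and the list were both above the other mice in mouse 3, by 1.37 and 0.52, and both below in mice 1 and 4. In mouse 2 the list was 0.46 above and Stard4 0.13 below. These signs held under the scalings tried. The other Stard4 probe set was not below in mouse 1, where it measured 8.67, level with its mean of 8.67 over the 4 mice. Without mouse 3, Stard4 was 0.37 above the remaining mice in mouse 2 and 0.079 above them in mouse 1, so its place in these mice rests on mouse 3.

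**Figure D4:**
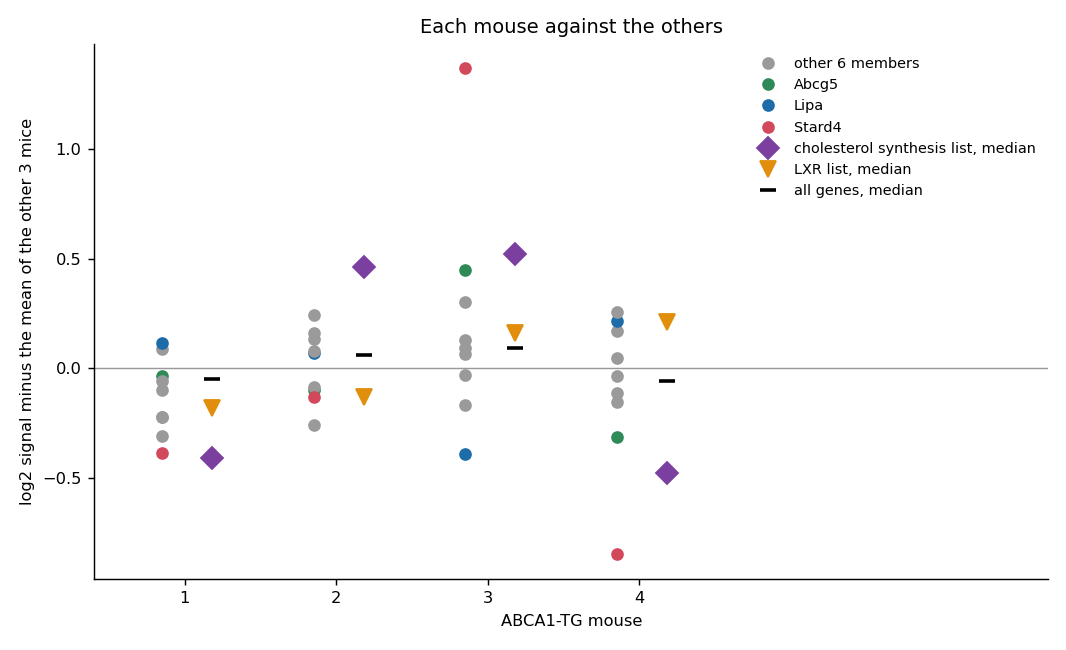
Difference in log2 signal between each mouse and the mean of the remaining 3, for the 9 measured members (circles) and as medians of the cholesterol synthesis list, the LXR list and all genes. Stard4 is at 1.37 in mouse 3 and -0.85 in mouse 4, Lipa at -0.39 in mouse 3, and the medians of all genes stay between -0.058 and 0.090.

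LXR and its targets other than the ABCG genes, 13 measured genes, had medians of -0.18, -0.13, 0.16 and 0.21 in mice 1 to 4, with 2, 4, 9 and 8 genes higher. Abca1 itself is 1 of the 13. The signs held with any 1 mouse left out. Mouse 2 was at -0.072 without mouse 4, mouse 3 at 0.081 without mouse 1 and 0.26 without mouse 4, and mouse 4 at 0.12 without mouse 2. With array medians equalised the values were -0.12, -0.23, 0.045 and 0.35. Srebf1, the lipogenic transcription factor, measured 11.54, 12.01, 13.44 and 11.65, and Cyp7a1, which starts bile acid synthesis, 12.80, 12.74, 13.88 and 12.54. Both were highest in mouse 3, as Abcg5 was, and Apoe had the smallest relative spread at 15.86 ± 0.10 (SD, n = 4). Other genes of the list went otherwise: Scd1, Mylip and Smpdl3a were lowest in mouse 3, and Lpcat3 and Pltp were highest in mouse 4. An unadjusted p under 0.05 was found for 3 of 13, against 3.71% of all probe sets, and 0 passed after adjustment over all probe sets (limma).

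Among 12 other START-domain genes, Pctp, the phosphatidylcholine transfer protein, measured 10.60, 10.34, 11.27 and 10.09. Like Stard4 it was highest in mouse 3 and lowest in mouse 4, with an unadjusted p of 0.031 (limma). Pctp was the 1 gene of the list under 0.05, against 3.71% of all probe sets. Stard3, a late endosomal cholesterol carrier, measured 9.71, 9.38, 10.10 and 9.85, and Acot12, an acetyl-CoA hydrolase, had the smallest relative spread at 12.41 ± 0.07 (SD, n = 4). The list medians were -0.12, 0.073, 0.025 and 0.083 in mice 1 to 4, against -0.051, 0.062, 0.090 and -0.058 over all genes. In mouse 4 the signs were opposite. The list medians of mice 2 and 3 turned sign with array medians equalised.

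Of 10 OSBP relatives and partners 0 had an unadjusted p under 0.05 (limma), against 3.71% of all probe sets. Vapb, which tethers Osbp to the endoplasmic reticulum, measured 9.64, 9.55, 10.37 and 9.65, with mouse 3 apart from 3 close values. Osbpl5 measured 5.25, 4.69, 6.22 and 6.93, a low level where spread is wide, and Osbpl2 measured 11.45 ± 0.09 (SD, n = 4). The medians were -0.14, -0.14, 0.094 and 0.20, and that of mouse 3 turned sign with array medians equalised, with signals under 64 raised to 64 and with low probe sets left out.

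Of 19 further genes of sterol esterification, binding and membrane transfer 0 had an unadjusted p under 0.05 (limma), against 3.71% of all probe sets. The widest were Cel, a bile salt-activated lipase of pancreas, at 7.78, 9.11, 7.70 and 8.25, and Lipe, hormone-sensitive lipase, at 8.07, 8.73, 8.91 and 8.03. Cel is also 1 of the exocrine pancreas markers, whose median was 1.64 higher in mouse 2, and its level there was the highest too. Lcat, which esterifies cholesterol in plasma, measured 13.57 ± 0.05 (SD, n = 4). The medians of this list were -0.082, -0.0092, 0.00083 and 0.052, and that of mouse 3 turned sign under 3 of the alternatives that keep all mice and without mouse 1.

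The genes whose centred profile over the 4 mice lay nearest to that of Stard4 1429240_at, among 10346 genes of mean log2 level of at least 6, were Ces4a, Ripor2, Kcnk2, Mmab and Ubald1. Their root mean square differences from Stard4 were 0.052, 0.074, 0.083, 0.097 and 0.11 log2. Ces4a, a carboxylesterase family member, measured 8.52, 8.63, 9.69 and 8.12 in mice 1 to 4. Mmab, the cobalamin adenosyltransferase, measured 8.15, 8.24, 9.39 and 7.95. Since they were chosen for this likeness over 4 points, their profiles are a description, and 0 of the 5 passed limma's test over all probe sets.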

How the data were processed

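The deposited values are 1 linear signal intensity per probe set and array, from biotin-labelled RNA that, per the labels' protocols, was amplified with RiboAmp from 2 ug of total RNA. The submitters' processing notes name RMA, with version and summarisation not given in the sources used here. The deposited intensities go down to 0.1, and their mean after trimming 2% at each end is 1000 on every array.

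Each intensity was used as its log2, without a pseudocount and without renormalization. Control probe sets, 64 in number, were dropped. Names came from the platform annotation: 20380 probe sets had 1 symbol, 691 several and 1555 none. The Entrez identifiers of all 9 measured members matched RefSeq.

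Variances between mice were tested with limma 3.58.1 in R 4.3.3 against a robust prior following mean level, over all probe sets, at an adjusted p threshold of 0.05. Both tests were run on simulated data with independent noise in each probe set. The simulation held no effect of a whole array, so it does not check the tests against array effects. The arrays' number limits precision. Members, lists and tests were chosen with earlier results of these data known. All members were named, and in each list the 2 genes of largest and the 1 of smallest ratio of SD to prior SD. Nearest profiles were ranked in Python 3.11.15. The alternatives are given in the closing section. A further part of the mice's genetic background is not reported here.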

Additional observations from a re-analysis of the deposited data

Results flagged for a closer look

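Among 38 probe sets of named genes, 2 had 1 mouse far from the other 3 by Dixon's criterion for 4 samples. Chance gives about 1 in 20 such groups. Lipa 1423140_at was lowest in mouse 3, at 10.48 against a nearest value of 11.89, a gap over range just past the limit. Vapb was highest in mouse 3, at 10.37 against 9.65, with a gap of 0.874 of the range. Of the 15 probe sets of the sterol transport genes the Lipa probe set was the 1 past that limit. Both counts are of the size that chance gives.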

How the results depend on the processing

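In the settings tried, 0 member probe sets passed the test of excess spread. Over all probe sets 5 passed when only those of mean log2 level of at least 6 were tested, and 0 otherwise. The lowest adjusted p of Lipa 1423140_at was 0.38 and of Stard4 1429240_at 0.72, both with that filter. The number of genes past the shared-difference test was 19, and it was 51 with arrays shifted to the same median, 1 with signals under 64 raised to 64, 40 with the filter at level 6, 0 without _s_at, _x_at and _a_at probe sets (158 at an unadjusted p under 0.05), and 0 to 4 with 1 mouse left out (2, 4, 0 and 1 without mouse 1, 2, 3 and 4). Members were not among the genes past it in the settings tried. Shifting arrays to the same median moved them by 0.051, -0.069, -0.087 and 0.11 log2 in mice 1 to 4. The member median was then -0.026, -0.022 and 0.10 in mice 2 to 4. The START-domain median was -0.019, -0.091 and 0.22 in mice 2 to 4, and the median of the esterification and transfer list -0.014, -0.10, -0.11 and 0.19 in mice 1 to 4. With 1 mouse left out the member median of mouse 3 ran from 0.049 to 0.19 (0.19 without mouse 2), and the START-domain median of mouse 4 from -0.023 (without mouse 1) to 0.064. With the mean over the probe sets of a gene the OSBP-related median of mouse 4 was 0.024, Lipa in mouse 3 was -0.70 and Stard4 in mouse 3 was 0.97. Without _s_at, _x_at and _a_at probe sets Lipa in mouse 3 was -0.20. The causes were not tested. The low signals of Osbpl5 and of bile duct, exocrine pancreas and muscle markers limit what can be read from them.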
